A study of Mus musculus with 12 samples.

Results

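Cytosolic ribosomal protein genes were examined in 4T1, a mammary carcinoma line from BALB/c mice, after loss of Cop1 and after interferon gamma (IFNγ). Genes were chosen by symbol alone, as Rpl or Rps followed by a number with Rpsa, Rplp0, Rplp1 and Rplp2 added and the S6 kinases and names ending in -ps removed. The rule took 85 of the 22298 genes in the count table, 52 of the large subunit and 33 of the small subunit. Of these, 80 passed the low-count filter and were tested among 11904 genes, 48 from the large and 32 from the small subunit. The members that did not pass were Rpl10l, Rpl24, Rpl39l, Rpl3l and Rps4l. The rule also took Rpl32l and Rps4l, which GENCODE annotates as processed pseudogenes. Cells carried a guide RNA against Rosa26, a locus often targeted as a neutral site, or against Cop1, as sgRNA1 or sgRNA2, and every group therefore carried a guide. Each of these 3 populations was given vehicle or 20 ng/ml IFNγ for 24 hours, which gave 6 groups of 2 libraries each, and the design asks how Cop1 loss alters transcription with and without the cytokine. Whether a population was a pool or a single clone, and whether its 2 libraries came from separate cultures, is not given in the labels, so the p-values reflect the spread between libraries only, and that spread may be technical.

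The ribosome joins a small subunit, which reads the messenger RNA, with a large subunit, which forms the peptide bond, and each subunit is built on ribosomal RNA with a set of proteins made in nearly equal numbers. Messenger RNAs of these proteins typically begin with a C followed by a run of pyrimidines, the terminal oligopyrimidine (TOP) tract, through which their translation follows the kinase mTORC1 and the binding protein LARP1. COP1 marks proteins such as the transcription factor c-Jun for degradation as an E3 ubiquitin ligase, and IFNγ acts on cells through JAK kinases.

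The start regions of 6 members are shown because the tract is the sequence feature these genes are known for and because they span the range of responses described below: Rpl12 and Rps2 were among the members that differed least between Cop1-loss and Rosa26 cells, and Rps12, Rpl14, Rps6 and Rplp2 were higher. Each window holds 30 bases before and 20 bases after the annotated RefSeq start on GRCm38.p6, on the transcript strand, with the longest pyrimidine run that begins with C near the start in capitals.
Rpl12: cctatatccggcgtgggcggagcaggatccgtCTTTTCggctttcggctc
Rps2: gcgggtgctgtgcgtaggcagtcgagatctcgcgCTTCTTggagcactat
Rps12: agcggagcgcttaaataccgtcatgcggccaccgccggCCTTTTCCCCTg
Rpl14: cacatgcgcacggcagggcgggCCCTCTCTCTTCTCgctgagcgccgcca
Rps6: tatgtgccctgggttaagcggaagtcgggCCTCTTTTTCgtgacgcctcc
Rplp2: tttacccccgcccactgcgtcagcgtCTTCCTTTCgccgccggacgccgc
The windows lie at chr2:32961682-32961731 on the plus strand for Rpl12, chr17:24720033-24720082 on the plus strand for Rps2 and chr10:23787190-23787239 on the minus strand for Rps12. Those of Rpl14, Rps6 and Rplp2 lie at chr9:120571487-120571536 on the plus strand, chr4:86857348-86857397 on the minus strand and chr7:141447621-141447670 on the plus strand. A run of at least 5 pyrimidines that began with C within 10 bases of the annotated start was present in 40 of the 64 members with such a sequence (62.5%) and in 34.4% of 27025 genes of all kinds. Runs of at least 8 were present in 25 members (39.1%) and in 9.43% of all genes. Only the transcript strand was searched, and a match describes the letters near an annotated start, which may not be the start used in these cells.

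Library totals lay between 19378070 and 32609717 counts. Cop1 itself stood at 94.0 ± 5.997 CPM (mean ± SD, n = 2) in Rosa26 vehicle cells, 61.1 ± 2.83 with sgRNA1 and 34.6 ± 0.204 with sgRNA2, and at 81.9 ± 2.07, 60.4 ± 0.388 and 32.9 ± 0.935 with IFNγ. All 6 epithelial markers were detected, at a summed 2280 to 3220 CPM per library, and none of the 6 leukocyte markers passed the filter, with Cd3e and Adgre1 at 0 in every library. CPM values are counts relative to TMM-scaled library sizes, so they compare a gene's part of the library between samples and not its amount per cell. In sgRNA2 vehicle replicate 1, 18 members stood apart from replicate 2. The members' share, their median change in vehicle and the rises of Rpl37, Rps23 and Rpl22l1 are also given without this library. In bulk samples, fewer cells of a kind and less RNA per cell cannot be told apart.

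The ribosomal protein genes took a larger part of the library in every Cop1-guide library than in every Rosa26 library. In vehicle their share of all counts was 6.82% and 6.70% in the Rosa26 libraries, 7.70% and 7.61% with sgRNA1 and 7.99% and 7.60% with sgRNA2. With IFNγ it was 6.51% and 6.38% in Rosa26, 7.72% and 7.42% with sgRNA1 and 7.18% and 7.41% with sgRNA2. Group means ± SD (n = 2) were 6.76% ± 0.0891, 7.66% ± 0.0594 and 7.80% ± 0.274 in vehicle, and 6.44% ± 0.0976, 7.57% ± 0.212 and 7.29% ± 0.163 with IFNγ, in the same order. The mean of both Cop1 guides lay above Rosa26 by 0.964 percentage points in vehicle and by 0.986 with IFNγ, against a pooled SD of 0.167 between libraries of a group. Without sgRNA2 vehicle replicate 1, the library with the highest share, the difference in vehicle was 0.868. Both subunits took part: large-subunit genes held 4.03% of counts in Rosa26 vehicle cells and 4.50% and 4.58% with the guides, and small-subunit genes 2.73% against 3.16% and 3.22%. The 78 mitochondrial ribosomal protein genes, whose products serve the organelle's own ribosome, held 0.362% to 0.389% of counts over the 12 libraries. In vehicle their share was 0.365% and 0.369% in Rosa26 and 0.375% to 0.389% in the Cop1-guide libraries, and with IFNγ the groups overlapped.

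**Figure D1:**
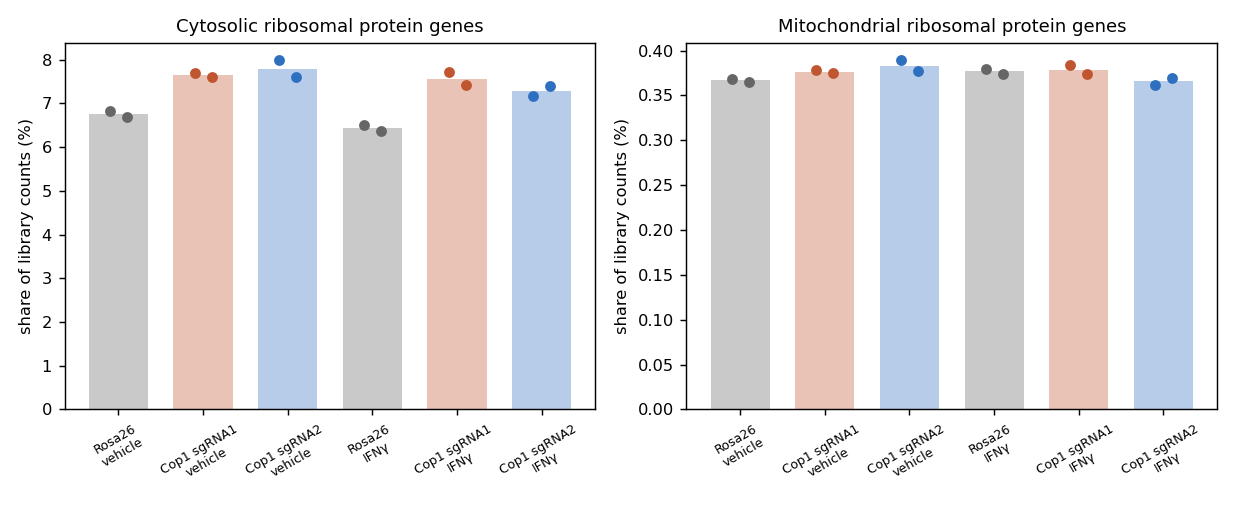
Share of library counts (%) held by the cytosolic ribosomal protein genes (left) and by the mitochondrial ones (right), by group; points are libraries and bars the mean of 2 libraries. On the left the Rosa26 libraries lie between 6.38% and 6.82% and all Cop1-guide libraries between 7.18% and 7.99%, while on the right all libraries lie between 0.362% and 0.389%.

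Levels of single members were compared per length, as mean CPM per kb of the principal GENCODE transcript. The median over the members tested, without the paralogs Rpl22l1, Rps27l, Rpl7l1 and Rpl32l, was 1146 CPM per kb. The highest per-length levels belonged to Rplp1, an acidic stalk protein, at 4491, Rpl41, a very short peptide of the large subunit, at 3501, and Rplp0, the stalk's anchor, at 2759. At the low end of the tested members stood Rpl32l at 1.53, Rps10 at 9.81, Rpl22l1 at 14.8, Rpl23a at 29.7, Rpl35 at 31.7, Rpl13a at 35.02 and Rpl26 at 60.8. Rps10, Rpl23a, Rpl35, Rpl13a and Rpl26 encode core proteins of every ribosome, and their levels ranged from 0.855% to 5.31% of the median without paralogs. For Rpl35 68.3% of the exon bases lie inside exons of another annotated gene, for Rpl13a 59.3%, for Rpl23a 55.4% and for Rps10 86.3%, whereas Rpl26 has no such overlap but shares 71.3% of its 50-base stretches with other genes. Rpl5 overlaps by 46.6% and was measured at 580 CPM per kb, 50.6% of that median, and Rpl30 overlaps by 34.7% and stood at 226. Rps27 shares 98.6% of its 50-base stretches and stood at 2329 CPM per kb. How reads that fit several genes were counted is not given in the sources used here. The part of overlap or of shared stretches in these levels was not tested. Rps15a and Rps20 are annotated with long principal transcripts of 5130 and 3706 bases, and their per-length levels of 106 and 259 CPM per kb depend on that choice.

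Rpl24, a core large-subunit gene that did not pass the filter, had only 1 to 23 counts per library, and 71.5% of its exon bases lie in another gene's exons. Rpl10l and Rpl39l, copies of Rpl10 and Rpl39 known from testis, had no count in any of the 12 libraries. Rpl3l, the muscle counterpart of Rpl3, had 0 to 2 counts, and Rps4l, annotated as a transcribed processed pseudogene, had 0 or 1. All 4 copies are under the floor of 3 counts in every library.

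**Figure D2:**
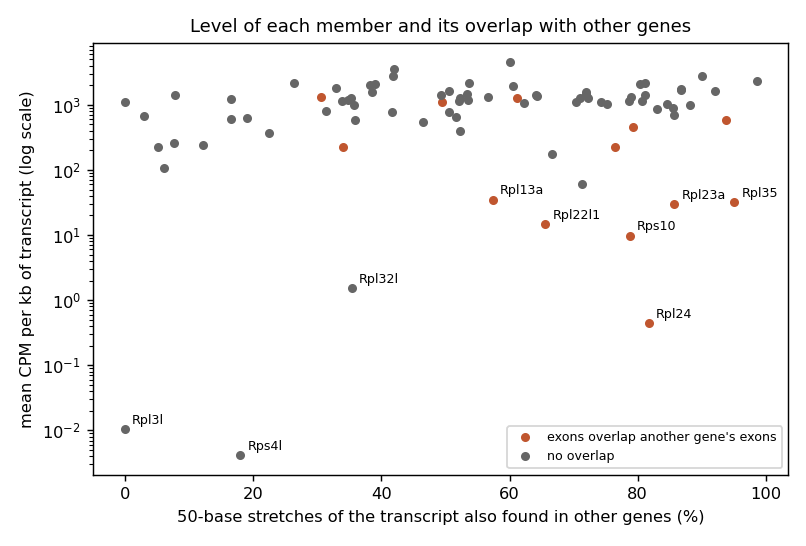
Mean CPM per kb of transcript (log scale) of each member against the percentage of its 50-base stretches that also occur in other annotated genes; colour marks members whose exons overlap those of another gene. Of the labelled low members, Rpl24, Rps10, Rpl22l1, Rpl23a, Rpl35 and Rpl13a overlap other genes' exons; Rpl10l and Rpl39l, with no count, are not drawn.

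Loss of Cop1 went with higher levels of most ribosomal protein genes in both treatments. A gene was called at an adjusted p under 0.05 by the quasi-likelihood test of edgeR, with p-values adjusted by Benjamini-Hochberg over all 11904 genes, with both Cop1 guides averaged and set against Rosa26. In vehicle 63 of 80 members were called higher, against 16.6% of all genes tested, and 0 were called lower, against 19.2% of all genes. With IFNγ 61 of 80 were called higher, against 19.8%, and 0 lower, against 20.7%. Members with a negative change at an unadjusted p under 0.05 in edgeR also numbered 0 in each treatment. DESeq2 called 68 and 65 members higher, against 13.1% and 16.1% of all genes, and 0 lower, against 14.3% and 15.6%. The median log2 change of the 80 members was 0.25 in vehicle and 0.27 with IFNγ, while that of all genes tested was -0.01 and 0.00. Called members changed by 0.07 to 0.60 in vehicle and by 0.08 to 0.48 with IFNγ on the log2 scale, and Rpl22l1 in vehicle was the only call above 1.5-fold.

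In vehicle 70 members had all 4 Cop1-guide libraries above both Rosa26 libraries, against 21.5% of all genes, and 0 had all below, against 24.5%. With IFNγ 71 lay above, against 23.9%, and 0 below, against 24.7%. The 2 comparisons share no library, but they use the same 3 guide populations and the same fit, so they are not independent. Both called 60 members higher. These were 95.2% of the members called in vehicle and 98.4% of those called with IFNγ, and 11.9% of all genes tested were higher in both. Rpl22l1, Rpl29 and Rpl32 were called in vehicle only and Rps2 with IFNγ only, and the interaction test called none of these 4 (adjusted p = 0.053 for Rpl22l1 and 0.67 to 0.833 for the others by edgeR). With the libraries of each population summed, so that the spread came from the 2 guides, 33 members were called higher in vehicle, against 2.83% of all genes, and 47 with IFNγ, against 5.35%. A test for changes above 1.1-fold (glmTreat) called 38 in vehicle, against 6.17%.

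**Figure D3:**
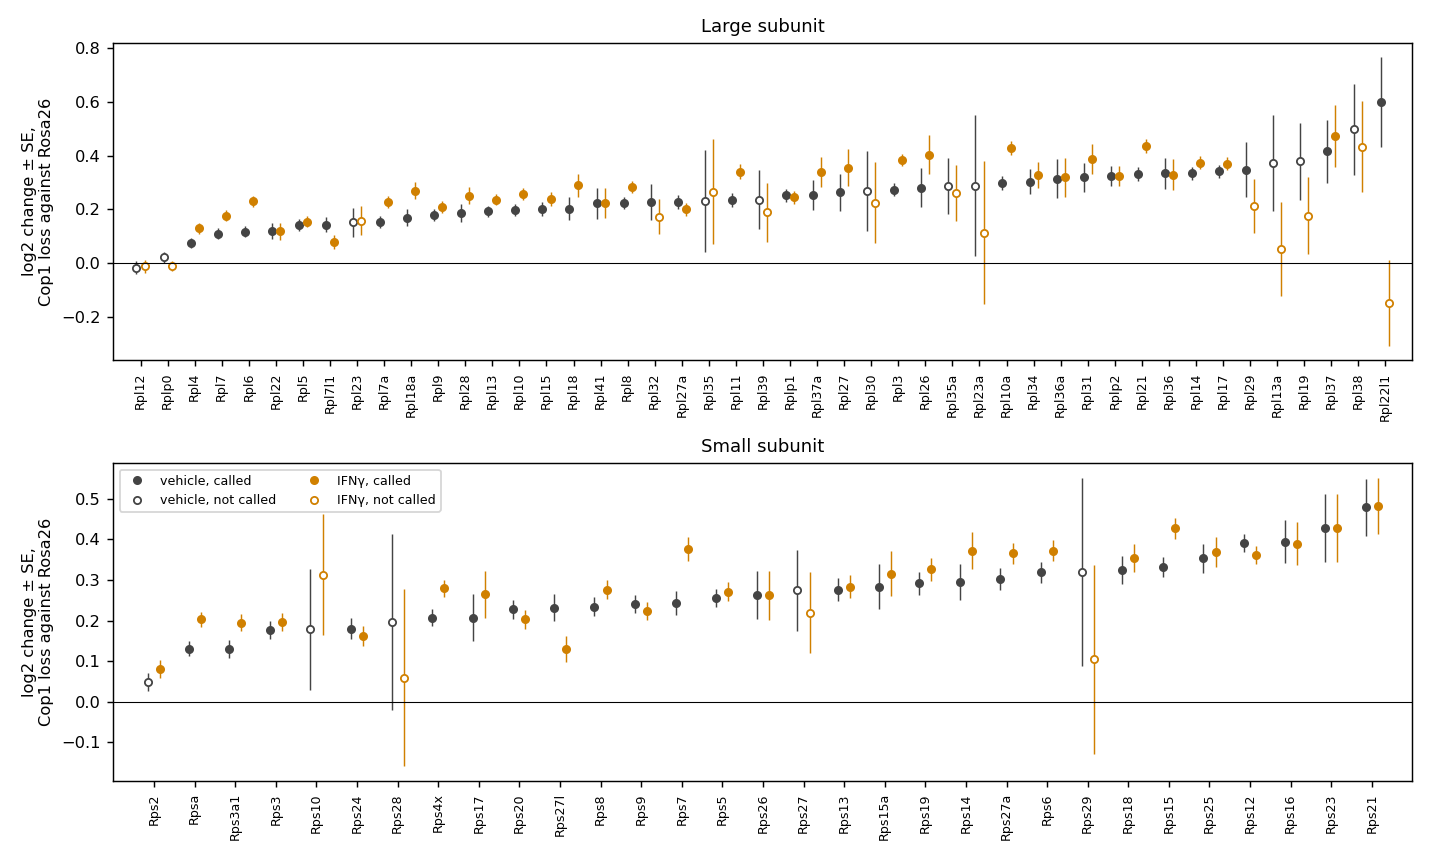
Log2 change ± SE of tested members in Cop1-loss against Rosa26 cells, in vehicle (dark) and with IFNγ (orange), by subunit and ordered by the vehicle change; filled points were called at an adjusted p under 0.05. Rpl32l, whose SE was 0.46 in vehicle and 0.60 with IFNγ, is left out, and Rpl12 and Rplp0 lie at 0 with small errors while most other members lie above it.

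The stalk, a protrusion of the large subunit that recruits translation factors, did not move as a unit. Rplp0, which anchors it, stood at 3777 and 3768 CPM in the Rosa26 vehicle libraries, 3935 and 3821 with sgRNA1 and 3784 and 3777 with sgRNA2. These groups touched, and the log2 change was 0.02 (SE 0.02, adjusted p = 0.419 by edgeR). With IFNγ Rplp0 changed by -0.01 (SE 0.02, adjusted p = 0.696 by edgeR), and with scaling by library totals alone it was called lower there, by 0.0528 on the log2 scale. Rplp1, an acidic protein that binds the anchor as a dimer with Rplp2, stood at 2040 and 1977 CPM in Rosa26 vehicle cells and at 2453, 2367, 2359 and 2387 in the Cop1-guide libraries. All 4 lay above both controls, and Rplp1 rose by 0.25 (SE 0.02, adjusted p = 5.07e-10 by edgeR) in vehicle and by 0.24 (SE 0.02) with IFNγ. Rplp2, at 772 and 738 CPM in Rosa26 vehicle cells, stood at 941, 909, 1004 and 925 with the Cop1 guides and rose by 0.32 (SE 0.04, adjusted p = 7.29e-06 by edgeR). Rpl12, which sits at the base of the same stalk, stood at 1391 and 1348 CPM in Rosa26 and between 1345 and 1369 in the Cop1-guide libraries in vehicle, within the range of the controls apart from a single library below it. Its log2 changes were -0.02 and -0.01 (SE 0.02 each, adjusted p = 0.638 and 0.732 by edgeR). The transcripts of Rplp1 and Rplp2 have 499 and 449 bases, and those of Rplp0 and Rpl12 have 1358 and 1242. The part of length in this difference was not tested.

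Of the large subunit, 36 of 48 members rose in vehicle, against 16.6% of all genes tested, and 33 with IFNγ, against 19.8%. The median changes of the 48 members were 0.23 and 0.25. Rpl37 was among the largest, with 563 and 557 CPM in the Rosa26 vehicle libraries, 677 and 729 with sgRNA1 and 902 and 685 with sgRNA2. The groups were apart, and Rpl37 rose by 0.42 (SE 0.12, adjusted p = 0.0325 by edgeR) in vehicle and by 0.47 (SE 0.12, adjusted p = 0.0182) with IFNγ. Without sgRNA2 vehicle replicate 1 the rise of Rpl37 in vehicle was 0.31 (adjusted p = 0.0128 by edgeR). Its call was lost under 7 of 19 alternatives in vehicle, with an adjusted p of up to 0.152 (edgeR, without Rosa26 vehicle replicate 2), and under 4 of 18 with IFNγ. Rpl21, by contrast, was measured tightly: 475 and 449 CPM in Rosa26 with IFNγ, 664 and 636 with sgRNA1 and 584 and 617 with sgRNA2. It rose by 0.44 (SE 0.03, adjusted p = 5.36e-17 by edgeR) and remained called under all 18 alternatives, with a highest adjusted p of 0.0037. Rpl10a, which forms the mobile L1 stalk near the exit site, went from 573 and 591 CPM in Rosa26 to between 777 and 790 in the Cop1-guide libraries with IFNγ, a rise of 0.43 (SE 0.03, adjusted p = 3.03e-17 by edgeR). Rpl14 rose by 0.33 (SE 0.02) in vehicle and by 0.37 (SE 0.02) with IFNγ. Small rises were seen for Rpl4, which lines the peptide exit tunnel, at 0.07 (SE 0.02) in vehicle and 0.13 (SE 0.02) with IFNγ, and for Rpl7, at 0.11 (SE 0.02) and 0.18 (SE 0.02). Rpl3, which reaches toward the peptidyl transferase centre, rose by 0.27 (SE 0.02) and 0.38 (SE 0.02).

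Of the small subunit, 27 of 32 members rose in vehicle, against 16.6% of all genes tested, and 28 with IFNγ, against 19.8%. The median changes of the 32 members were 0.27 and 0.28. Rps21 stood at 707 and 703 CPM in the Rosa26 vehicle libraries, at 1013 and 998 with sgRNA1 and at 1012 and 905 with sgRNA2. With IFNγ it stood at 636 and 669 CPM in Rosa26, 1101 and 950 with sgRNA1 and 810 and 808 with sgRNA2. Cop1-guide libraries were above the controls throughout, and the log2 change was 0.48 (SE 0.07) in each treatment, with adjusted p = 0.00185 and 0.00153 by edgeR. Rps12, a protein of the small subunit's beak, had the smallest p of all members in vehicle: 1124 and 1120 CPM in Rosa26 against 1490, 1449, 1483 and 1460 in the Cop1-guide libraries. It rose by 0.39 (SE 0.02, adjusted p = 2.16e-18 by edgeR) in vehicle and by 0.36 (SE 0.02) with IFNγ. Rps23, which borders the decoding centre, rose by 0.43 in each treatment (SE 0.08 each), from 506 and 499 CPM in Rosa26 vehicle cells to between 613 and 766. Rps15, which lies in the head, went from 826 and 806 CPM in Rosa26 to between 1053 and 1147 with the Cop1 guides under IFNγ, a rise of 0.43 (SE 0.03). At the other end stood Rps2, a protein of the mRNA entry channel, at 1344 and 1325 CPM in Rosa26 vehicle cells, 1307 and 1320 with sgRNA1 and 1491 and 1414 with sgRNA2. The guides fell on opposite sides of the controls, and the average change of 0.05 (SE 0.02) was not called (adjusted p = 0.0828 by edgeR); with IFNγ Rps2 rose by 0.08 (SE 0.02, adjusted p = 0.00336).

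Several members are also known for functions outside the ribosome, for signalling, for disease or for translating particular mRNAs. Most of those described here rose, as did most members. Of all 80 members 63 and 61 were called higher, against 16.6% and 19.8% of all genes tested. Rpl5 and Rpl11, which with the 5S ribosomal RNA can bind and inhibit the p53 ligase MDM2, rose by 0.14 (SE 0.02) and 0.23 (SE 0.03) in vehicle and by 0.15 (SE 0.02) and 0.34 (SE 0.03) with IFNγ. Rps27a, made as a fusion with ubiquitin, rose by 0.30 (SE 0.03) and 0.37 (SE 0.03). Rps6, the classical substrate of the S6 kinases, rose by 0.32 (SE 0.03) and 0.37 (SE 0.03), and Rps19, the gene most often mutated in Diamond-Blackfan anaemia, by 0.29 (SE 0.03) and 0.33 (SE 0.03). Rps3, also described in DNA repair, rose by 0.18 (SE 0.02) and 0.20 (SE 0.02), and Rpsa, also known as the laminin receptor precursor, by 0.13 (SE 0.02) and 0.20 (SE 0.02). Rpl13a, which takes part in IFNγ-dependent silencing of inflammatory mRNAs in myeloid cells, was counted at only 30.5 to 52.1 CPM. Its changes of 0.37 (SE 0.18) and 0.05 (SE 0.18) were not called (adjusted p = 0.158 and 0.85 by edgeR). Rpl38, known for its part in translating homeobox mRNAs in the embryo, was not called either, with changes of 0.50 (SE 0.17, adjusted p = 0.0634 by edgeR) and 0.43 (SE 0.17, adjusted p = 0.0896).

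The paralogs differed from the parent genes in level and, in part, in response. Rpl22l1, the counterpart of Rpl22, stood at 5.65 and 6.05 CPM in the Rosa26 vehicle libraries, 6.75 and 9.44 with sgRNA1 and 12.3 and 7.59 with sgRNA2. With IFNγ it stood at 7.76 and 10.2 CPM in Rosa26 and between 7.67 and 8.53 in the Cop1-guide libraries. Cop1-guide libraries lay above the controls in vehicle and inside their range or just below it with IFNγ. The change was 0.60 (SE 0.17, adjusted p = 0.00564 by edgeR) in vehicle and -0.15 (SE 0.16, adjusted p = 0.491) with IFNγ. Without sgRNA2 vehicle replicate 1, in which Rpl22l1 was highest, the rise was 0.41 (adjusted p = 0.0382 by edgeR). Its call in vehicle was lost under 4 of 19 alternatives: sgRNA1 alone, sgRNA2 alone without that replicate, summed populations and without Rosa26 vehicle replicate 1. Rpl22 rose by 0.12 (SE 0.03) in each treatment. Rps27l, a p53-inducible copy of Rps27, stood at 169 and 162 CPM in Rosa26 vehicle cells and between 189 and 205 in the Cop1-guide libraries, and rose by 0.23 (SE 0.03, adjusted p = 2.29e-07 by edgeR) in vehicle and by 0.13 (SE 0.03) with IFNγ. Its parent Rps27 had larger errors, at 0.27 (SE 0.10) and 0.22 (SE 0.10), and was not called (adjusted p = 0.0783 and 0.134 by edgeR). Rpl7l1 rose by 0.14 (SE 0.03) and 0.08 (SE 0.03). Rpl32l, annotated as a processed pseudogene and counted at 0.256 to 1.39 CPM, was not called. Rps4x and Rpl10, the parents of copies that were not detected, rose by 0.21 (SE 0.02) and 0.20 (SE 0.02) in vehicle.

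Most members without a call had wide errors. In neither treatment were Rpl12, Rpl13a, Rpl19, Rpl23, Rpl23a, Rpl30, Rpl32l, Rpl35, Rpl35a, Rpl38, Rpl39, Rplp0, Rps10, Rps27, Rps28 and Rps29 called, 16 in all. The median SE of uncalled members was 0.148 in vehicle against 0.0276 for called members, and apart from Rpl12 and Rplp0 the smallest SE among these 16 was 0.0532. A single library moved many of them: in sgRNA2 vehicle replicate 1, 18 members lay more than 0.3 log2 above replicate 2, against 0 to 2 members in that direction or the opposite one in each other group. Among the 18 were Rps29 at 0.88, Rps28 at 0.84, Rpl38 at 0.62, Rpl19 at 0.52, Rpl37 at 0.40 and Rps23 at 0.32. Rps29, for example, stood at 673 CPM in that library and between 333 and 415 in the other 11. Among other genes, 7.72% lay more than 0.3 above replicate 2 in that pair, and 6.21% to 7.12% did in the other pairs. Without that library the rise of Rps23 in vehicle was 0.35 (adjusted p = 8.28e-16 by edgeR). Over all members the median change in vehicle was then 0.22, and without its partner it was 0.28. The rise over most members was therefore present without either library. The fit takes each gene's spread from all 12 libraries, so sgRNA2 vehicle replicate 1 can also widen the errors with IFNγ. The comparison with IFNγ was not repeated without that library. Of the 16 uncalled members, Rpl19, Rpl23, Rpl30, Rpl32l, Rpl35, Rpl38, Rpl39, Rps27 and Rps29 had all Cop1-guide libraries above both Rosa26 libraries with IFNγ. The rest did not, and 23.9% of all genes tested did. In vehicle Rpl13a, Rpl19, Rpl23, Rpl35a, Rpl38, Rpl39 and Rps27 of the 16 did, against 21.5% of all genes.

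The response to IFNγ in Rosa26 cells was small. There 17 of 80 members fell, against 16.2% of all genes tested, and 1 rose, against 16.6%, by edgeR at an adjusted p under 0.05. The share of members that fell was thus near that of all genes, and the share that rose was lower. The median change was -0.06, and 44 members had both IFNγ libraries below both vehicle libraries, against 33.9% of all genes, with 6 above, against 31.4%. Rpl21 went from 517 and 516 CPM to 475 and 449 and fell by 0.16 on the log2 scale (SE 0.03, adjusted p = 5.65e-05 by edgeR). Rpl11 fell by 0.15 (SE 0.03), from 834 and 774 to 729 and 717 CPM, Rps7, an assembly-linked protein of the small subunit, by 0.14 (SE 0.03) and Rps15 by 0.14 (SE 0.03). Rpl10a fell by 0.13 (SE 0.03). The member that rose was Rpl22l1, by 0.61 (SE 0.19, adjusted p = 0.0131 by edgeR), a call lost without either Rosa26 vehicle library and without Rosa26 IFNγ replicate 2. Above 1.1-fold 1 member was called, which was Rpl22l1, against 17.4% of all genes in either direction.

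In Cop1-loss cells few members passed the test with IFNγ. Here 5 of 80 fell, against 16.1% of all genes, and 0 rose, against 18.1%. At an unadjusted p under 0.05 edgeR counted 2 higher, and DESeq2 called 0 higher and 3 lower, against 13.7% and 11.6% of all genes. Those that fell were Rps27l, by 0.09 (SE 0.03, adjusted p = 0.00793 by edgeR), Rps2 by 0.08 (SE 0.02), Rplp0 by 0.06 (SE 0.02), Rpl21 by 0.06 (SE 0.02) and Rpl17 by 0.05 (SE 0.02). Leaving out sgRNA2 vehicle replicate 1, Rps20 was higher by 0.05, the opposite direction to the 5 members called with all libraries. The count moved with single settings, from 0 above 1.1-fold to 30 without sgRNA2 vehicle replicate 2 and 35 with the length and GC trends of other genes removed. With sgRNA2 libraries alone 9 fell, against 11% of all genes, while with sgRNA1 alone 1 fell, against 9.98%, and 1, Rps20, rose, against 12.5%. The median change was -0.03, and 1 member had all IFNγ libraries above all vehicle libraries, against 13.5% of all genes, and 1 below, against 11.8%.

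**Figure D4:**
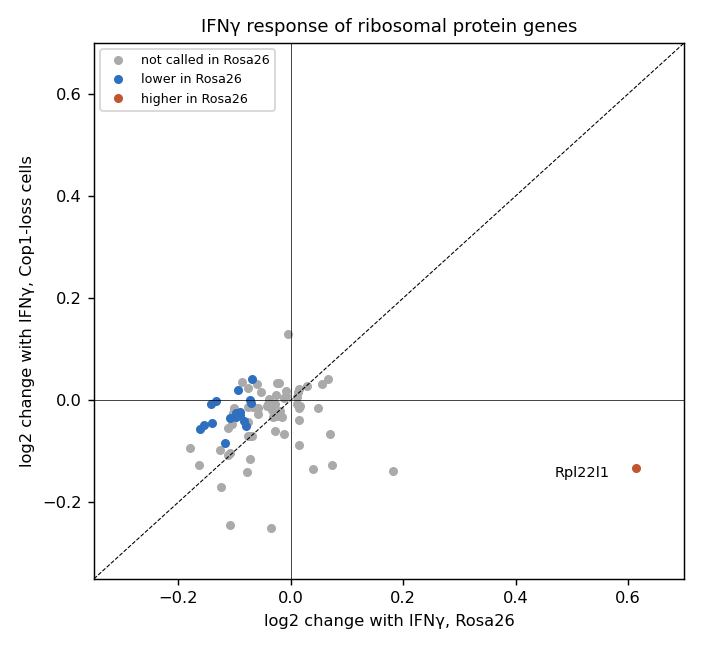
Log2 change with IFNγ in Rosa26 cells (x axis) and in Cop1-loss cells (y axis) of each tested member but Rpl32l; colour marks the call in Rosa26 cells and the dashed line equal change. Most members lie between -0.2 and 0.1 on both axes, the members called lower in Rosa26 lie above the line, and Rpl22l1 stands apart at 0.61 in Rosa26.

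The difference between these responses, tested as the interaction in the same edgeR model, was called for 4 of 80 members, all positive, against 3.38% of all genes; 0 were negative, against 2.36%, with 2 at an unadjusted p under 0.05 and 0 by DESeq2. Rpl6, a large-subunit protein, stood at 1681 and 1625 CPM in Rosa26 vehicle cells and 1563 and 1536 with IFNγ. In Cop1-guide cells it stood between 1752 and 1821 in vehicle and between 1777 and 1886 with IFNγ. It thus fell by 0.09 (SE 0.02) in Rosa26 and changed by 0.02 (SE 0.02) in Cop1-loss cells, a difference of 0.11 (SE 0.03, adjusted p = 0.0178). For Rpl10a the difference was 0.13 (SE 0.04, adjusted p = 0.0232), for Rpl3 0.11 (SE 0.03, adjusted p = 0.0297) and for Rps7 0.13 (SE 0.04, adjusted p = 0.0434). Without sgRNA2 vehicle replicate 1 the call of Rps7 was lost (adjusted p = 0.0677 by edgeR), and 6 members were called. A share of 4 in 80 is near that of all genes, and without Rosa26 vehicle replicate 1, or without sgRNA2 IFNγ replicate 2, 0 members were called.

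Each Cop1 guide on its own, set against the same Rosa26 libraries, gave rises. In vehicle sgRNA1 had 56 members higher, against 15.8% of all genes, with a median of 0.23, and sgRNA2 had 64, against 13.5%, with a median of 0.26. With sgRNA2 vehicle replicate 1 left out as well, the remaining sgRNA2 library gave 59 of 81, against 10.3%, with a median of 0.21, and the lone library was taken to vary like the other groups. With IFNγ they had 62, against 18.9%, with a median of 0.30, and 54, against 16.6%, with a median of 0.23. Set directly against each other in vehicle, sgRNA2 cells were higher than sgRNA1 cells for Rps2, by 0.15 (SE 0.03, adjusted p = 0.000141 by edgeR), against 2.58% of all genes, and lower for Rpl9, by -0.10 (SE 0.02), against 3.41%. Without sgRNA2 vehicle replicate 1 the call of Rpl9 was lost, at -0.08 (adjusted p = 0.128 by edgeR). Without replicate 2, which leaves the library that stood apart, 25 members were higher, against 2.66% of all genes, and 2 lower, against 2.98%. With IFNγ 5 members were lower in sgRNA2 cells, against 4.33% of all genes, and 0 higher, against 5.07%, with 1 at an unadjusted p under 0.05 and 0 by DESeq2. They were Rps21, at -0.34 (SE 0.08, adjusted p = 0.0459 by edgeR), Rpl21 at -0.11 (SE 0.03), Rpl11 at -0.11 (SE 0.03), Rps19 at -0.11 (SE 0.03) and Rps3a1 at -0.08 (SE 0.02). With IFNγ 71 of 80 members had a negative difference between the guides, against 6028 of 11904 genes. The median over members of up to 1000 bases was -0.07, as it was over the 817 other genes of that length.

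Ribosomal protein transcripts are short, with a median of 751 bases against 2846 for the other genes tested, and short transcripts as a whole also stood slightly higher after Cop1 loss. Among 817 other genes of up to 1000 bases the median change was 0.05 in vehicle and 0.05 with IFNγ, with 22.2% and 21.9% higher. The 59 members of that length had medians of 0.27 and 0.28, with 46 and 44 higher. By length, the members' median change in vehicle was 0.314 up to 500 bases, 0.283 at 501 to 750 and 0.232 at 751 to 1000. It was 0.169 at 1001 to 1500 bases, 0.136 at 1501 to 2500 and 0.255 for the 2 members over 2500. With IFNγ these medians were 0.322, 0.301, 0.269, 0.2, 0.158 and 0.259. With the length trend of the other genes removed from each library, 65 members were higher in vehicle, against 18.6% of all genes. Rpl12 was the 1 member lower, against 15.8%, and the members' median was 0.19. With IFNγ 65 members were higher under that setting, against 22.2% of all genes, with a median of 0.25. In Rosa26 cells the count of members called with IFNγ went from 18 to 44 under that setting, of which 43 were lower, against 25.4% of all genes. In Cop1-loss cells it went from 5 to 26, of which 25 were lower, against 29.7%. With GC content added to the trend these counts were 43 and 35. The trend was fitted on the other genes, and the part of length in the members' rise was not tested. With the length trend alone removed, the median IFNγ response of all genes tested moved to -0.07 in Rosa26 and to -0.07 in Cop1-loss cells.

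Changes were also set beside the start-site sequences shown above. The 25 tested members with a run of at least 8 pyrimidines had a median change of 0.27 in vehicle and 0.26 with IFNγ, and the 35 without such a run 0.22 and 0.26. Of the 25 with the run 16 rose in vehicle, and of the 35 without it 30, against 16.6% of all genes tested. With IFNγ 15 and 31 rose, against 19.8%. Members with the run were thus called less often, although their median in vehicle was higher. Rpl12, Rps2 and Rps23 each have a run of 6, and their changes in vehicle were -0.02, 0.05 and 0.43.

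Of 4 tested ribosomal protein genes whose symbols the rule does not take, 2 rose in each treatment. Fau, a ubiquitin-like fusion with a small-subunit protein, rose by 0.15 (SE 0.04, adjusted p = 0.0213 by edgeR) in vehicle and 0.17 (SE 0.04) with IFNγ, and Rack1, a scaffold on the small subunit, by 0.15 (SE 0.02) and 0.21 (SE 0.02). Rpl36al was not called, with an adjusted p of 0.204 in vehicle by edgeR. Of 23 translation factors and other genes with TOP mRNAs, 13 rose and 2 fell in vehicle, against 16.6% and 19.2% of all genes. With IFNγ 15 rose and 2 fell, against 19.8% and 20.7%, and the medians were 0.11 and 0.09. Eef1a1, the elongation factor that delivers aminoacyl-tRNA, stood at 9046 and 9020 CPM in Rosa26 vehicle cells and between 11790 and 12590 in the Cop1-guide libraries. With IFNγ it stood at 7553 and 7575 CPM in Rosa26 and between 11860 and 11950 with the Cop1 guides. It rose by 0.43 (SE 0.02, adjusted p = 2.88e-24 by edgeR) and 0.65 (SE 0.02, adjusted p = 1.08e-30). Naca, a subunit of the nascent chain complex, rose by 0.28 (SE 0.02) and 0.42 (SE 0.02), and Npm1, a nucleolar histone and ribosome chaperone, by 0.25 (SE 0.02) and 0.26 (SE 0.02). Eef2, the translocase, fell by 0.09 (SE 0.02) in vehicle and changed by 0.01 (SE 0.02) with IFNγ. In Rosa26 cells with IFNγ, 3 of the 23 rose, against 16.6% of all genes, and 7 fell, against 16.2%.

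The 77 tested genes of the mitochondrial ribosome had medians of 0.07 in vehicle and 0.02 with IFNγ, with 25 higher and 2 lower, and 16 higher and 7 lower. All genes tested had 16.6% higher and 19.2% lower in vehicle and 19.8% and 20.7% with IFNγ, so 16 of 77 is near the background. Of 26 tested regulators of cytosolic ribosomal protein mRNA, 5 rose and 5 fell in vehicle, and 7 rose and 6 fell with IFNγ, which is also near those shares. Deptor, an inhibitor bound to mTOR, rose by 0.54 (SE 0.06) and 0.62 (SE 0.06), Eif4ebp1, a repressor of cap-dependent translation, fell by 0.18 (SE 0.03) and 0.23 (SE 0.03), and Myc fell by 0.10 (SE 0.03) and 0.24 (SE 0.03). Larp1 changed by -0.04 (SE 0.03) in vehicle, without a call, and was higher by 0.13 (SE 0.03) with IFNγ. Of 13 chaperones and importers of ribosomal proteins, 4 rose and 2 fell in vehicle and 4 rose with IFNγ. Among 3 tested host genes of small nucleolar RNAs, Zfas1 fell by 0.32 (SE 0.05) in vehicle and 0.94 (SE 0.05) with IFNγ. Snhg5 rose by 0.13 (SE 0.05, adjusted p = 0.0489 by edgeR) in vehicle, and Snhg8 fell by 0.32 (SE 0.08) with IFNγ.

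**Figure D5:**
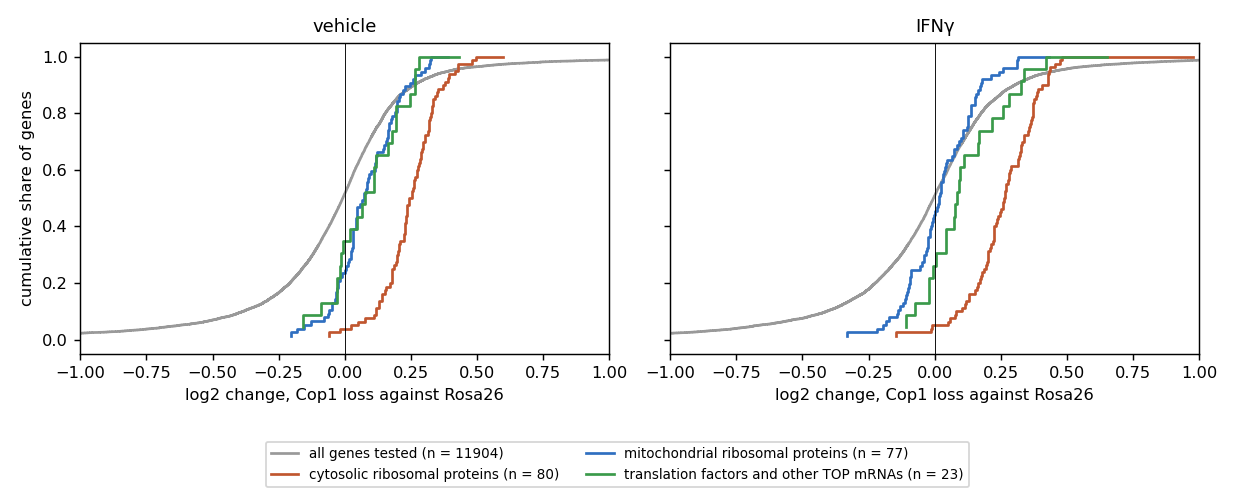
Cumulative share of genes by log2 change in Cop1-loss against Rosa26 cells, in vehicle (left) and with IFNγ (right), for all genes tested, cytosolic and mitochondrial ribosomal proteins, and translation factors and other TOP mRNAs; the x axis is limited to -1 to 1. Up to a change of about 0.4 the cytosolic curve lies to the right of the others, with medians of 0.25 and 0.27 against 0.07 and 0.02 for the mitochondrial genes.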

How the data were processed

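RNA from 12 libraries was measured in 6 groups of 2. The authors deposited raw counts as whole numbers for each gene and library; per the labels' protocols, an Illumina TruSeq RNA kit was used. Per the submitters' processing notes, the tools were STAR 2.4.0, HTSeq and DESeq2 1.10, with the build mm10. For the annotation, the strand setting and reads fitting several genes, nothing is given in the sources used here, and overlapping genes or copies may share reads. A row of totals was left out, which equalled the summed counts in 11 libraries and exceeded them by 360 in sgRNA1 vehicle replicate 1. No column belonged to other samples.

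Counts were tested with edgeR 4.0.16 (R 4.3.3), with TMM scaling, filterByExpr (minimum count 10, minimum total 15), a quasi-likelihood fit over the 6 group means (6 residual degrees of freedom) and Benjamini-Hochberg adjustment over 11904 genes. The biological coefficient of variation was 3.21%, so small changes were called. The 2 libraries of a group differed beyond counting noise in all groups. Code was tested on simulated data. Counting error alone limits values near the floor of 3 counts. Alternatives were other scalings, no filter, DESeq2 1.42.0, glmTreat at 1.1-fold, single guides, a replicate block, libraries left out and, chosen after seeing the data, summed populations, sgRNA2 alone without vehicle replicate 1, and length or GC trends. Lengths, exon overlap and 50-base matches came from GENCODE M21 on GRCm38, where 85 members matched, and start sequences from RefSeq on GRCm38.p6, where 64 matched. Members and lists were chosen with earlier results of these data known. Named members are the 5 called with the largest rise and the 5 with the largest fall per comparison, the 3 highest and lowest in CPM, stalk genes, the 5S proteins, paralogs with parents, and Rpl13a, Rps3, Rps6, Rpl38, Rpsa, Rps27a and Rps19. From the other lists, the rule takes the 3 called genes with the smallest p and Larp1, Myc, Eif4ebp1, Eef1a1, Eef2, Fau and Rack1. Other members, such as Rps12, Rpl4, Rpl7, Rpl12, Rpl14 and Rps29, were named after their values were seen. Some genes the rule takes are not reported here.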

Additional observations from a re-analysis of the deposited data

Results flagged for a closer look

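A differing response to IFNγ between Cop1-loss and Rosa26 cells was called for 4 members by edgeR's interaction test with Benjamini-Hochberg adjustment. The differences on the log2 scale were 0.112 for Rpl6 (adjusted p = 0.0178), 0.13 for Rpl10a (adjusted p = 0.0232), 0.11 for Rpl3 (adjusted p = 0.0297) and 0.133 for Rps7 (adjusted p = 0.0434). Each fell with IFNγ in Rosa26 cells, while in Cop1-loss cells the changes were 0.02, 0.00, 0.04 and -0.01. Over 19 alternatives each, the call was lost in 5 for Rpl6, 9 for Rpl10a, 8 for Rpl3 and 11 for Rps7.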

How the results depend on the processing

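The rise with Cop1 loss was positive in the median under every alternative run. The number of members called in vehicle was 63, and 38 above 1.1-fold by glmTreat or 33 with each population's libraries summed (50 to 75 leaving out single libraries); with IFNγ it was 61, and 54 to 64 leaving out libraries. For IFNγ in Rosa26 cells 18 were called, and 1 by glmTreat, 44 with the length trend removed (43 lower, against 25.4% of all genes) and 43 with length and GC trends removed (42 lower, against 25.5%) (10 to 18 leaving out libraries). For IFNγ in Cop1-loss cells 5 were called, and 20 with library totals (all lower, against 21.7% of all genes), 8 without a filter, 0 by glmTreat, 3 by DESeq2, 2 and 9 for sgRNA1 and sgRNA2 alone, and 26 and 35 with these trends removed (25 and 31 lower, against 29.7% and 30.6%; 3 to 30 leaving out libraries). For the interaction 4 became 2 with library totals, 7 without a filter, 0 by glmTreat and 2 by DESeq2 (0 to 7 leaving out libraries). Between guides, 2 became 4 in vehicle and 5 became 9 with IFNγ without a filter, and 0 by glmTreat in each (1 to 27 and 0 to 10 leaving out libraries). The highest of these, 30 and 27, came without sgRNA2 vehicle replicate 2. The rise in share of counts, in percentage points, became 1.199 in vehicle and 1.26 with IFNγ when the 100 most abundant other genes were left out of the total, and 1.193 with IFNγ on TMM-scaled library sizes; leaving out libraries gave 0.868 to 1.06 and 0.911 to 1.06. With IFNγ the share changed by -0.387 to -0.248 in Rosa26 and by -0.393 to -0.199 in Cop1-loss cells leaving out libraries. The causes of these shifts were not tested. Replicate numbers did not pair the libraries, with correlations of deviations from -0.0298 to 0.0446 over 15 group pairs. With a replicate block the counts were 64, 63, 20, 5, 3, 2 and 7, in the order vehicle, IFNγ, both IFNγ responses, interaction and the guides. Of all genes, 36.1%, 40.8%, 33%, 34.6%, 5.82%, 6.12% and 9.76% were called in that order, in either direction. For the interaction these shares were 5.47% with library totals, 4.65% without a filter, 1.27% by glmTreat and 4.28% by DESeq2. Between guides they were 4.77% in vehicle and 7.41% with IFNγ without a filter, and 0.907% and 1.11% by glmTreat. For the members named in a comparison, 624 of 770 checks kept their call, 146 lost it and 0 reversed. Rpl35, Rpl23a, Rps10 and Rpl32l had SEs of 0.149 to 0.604, so a change like that of the other members was within their error. These 4 are among the 18 members in which sgRNA2 vehicle replicate 1 stood apart, and what sets the errors was not tested. Depth limits Rpl32l, at 0.256 to 1.39 CPM, and the members under the filter.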
